A study of Mus musculus with 9 samples.

Results

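The cytosolic ribosome is built from ribosomal RNA and a set of small, abundant proteins, and the genes of those proteins are described here in 3 populations of cultured mouse haematopoietic stem and progenitor cells. Genes were taken by symbol: Rpl or Rps followed by a digit, with Rplp0, Rplp1, Rplp2 and Rpsa, leaving out pseudogene symbols, the Rps6k kinases and Rps19bp1. This gave 91 of the 49585 genes in the count table. Of these, 83 had enough counts to be tested among 11619 tested genes, by symbol 51 of the large subunit and 32 of the small subunit. The other 8 (Rpl10l, Rpl39l, Rpl3l, Rps12l1, Rps27rt, Rps3a2, Rps3a3 and Rps4l) had between 0 and 9 counts summed over all libraries and could not be compared. The 83 tested genes averaged between 5.10 CPM (counts scaled to 1e6 per library) for Rpl37rt and 3609 CPM for Rpsa, and 2 of them (Rpl37rt and Rpl6l) averaged below 10 CPM.

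Each ribosome holds 1 copy of nearly every one of these proteins, divided between a large subunit (Rpl) that forms peptide bonds and a small subunit (Rps) that reads the mRNA. Their mRNAs are made in broadly balanced amounts, and most begin with a run of pyrimidines (C and T in the DNA) at the very start of the transcript, the 5′ terminal oligopyrimidine or TOP motif. Through this run, and the protein LARP1 that reads it, the mTOR kinase sets how strongly these mRNAs are translated without a matching change in their amount. Haematopoietic stem cells are known for a low rate of protein synthesis, and blood formation is sensitive to the loss of 1 copy of a ribosomal protein gene, as in Diamond-Blackfan anaemia. Levels of mRNA, as measured here, do not report on translation.

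Short stretches of the start sites are shown to make the motif visible. Each is 30 bases long, from 15 bases before to 15 bases after the start in the RefSeq annotation of GRCm38.p6, written 5′ to 3′ on the gene's own strand. Capitals mark the longest run of C and T that begins with C and has at least 6 bases. The first 4 are genes that were lower in CD201+CD48- compared with CD201- cells, the next 4 are genes with a run that did not pass that test, and the last 2 are lower genes in which no such run was found in this window.
Rpl14: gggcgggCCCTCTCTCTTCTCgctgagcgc
Rpl35: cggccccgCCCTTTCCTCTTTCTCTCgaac
Rpl18: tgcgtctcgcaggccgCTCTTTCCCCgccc
Rps6: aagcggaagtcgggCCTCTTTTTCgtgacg
Rplp2: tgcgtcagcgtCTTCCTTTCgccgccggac
Rps27: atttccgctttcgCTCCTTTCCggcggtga
Rpl22l1: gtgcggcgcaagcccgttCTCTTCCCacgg
Rpl15: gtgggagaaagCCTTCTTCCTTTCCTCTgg
Rpl36al: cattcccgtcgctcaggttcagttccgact
Rpsa: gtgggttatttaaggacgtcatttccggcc
In the same order the stretches lie at chr9:120571502-120571531 (plus strand), chr2:39005117-39005146 (minus strand), chr7:45718056-45718085 (plus strand), chr4:86857353-86857382 (minus strand), chr7:141447636-141447665 (plus strand), chr3:90213634-90213663 (minus strand), chr3:28805493-28805522 (plus strand), chr14:18270972-18271001 (minus strand), chr12:69184053-69184082 (minus strand) and chr9:120127751-120127780 (plus strand). All span the first bases of the annotated transcript and the bases upstream of it. The reference table held start sites for 66 of the 91 genes. A run of this kind was found in 37 of the 66 (56.1%), against 25.5% of 27025 genes with a start site in the table. On the opposite strand of the same windows the shares were 9.09% and 28.6%. Annotated starts can lie some bases from the starts used in these cells, so a missing run says only that these letters are absent from this window.

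The cells came from wild-type C57BL/6 mice. CD34-CD150+KSL bone marrow cells (KSL: Kit positive, Sca-1 positive, lineage negative) were expanded in F12 medium with 0.1% polyvinyl alcohol, SCF at 10 ng/ml, thrombopoietin at 100 ng/ml and ITS supplement. Culture lasted 10 days by the design text and a week by the growth protocol. After expansion 3 populations were sorted, each with 3 replicates: CD201+CD150+CD48-KSL (here CD201+CD48-), CD201+CD150+CD48+KSL (CD201+CD48+) and CD201-KSL (CD201-). Titles of the CD201- libraries also name CD150+CD48+, which the treatment label does not, so whether that gate was applied is not known here. No population was freshly isolated or uncultured, so all 3 share the medium and cytokines. Labels do not tell whether replicates are separate mice or cultures, so p-values reflect only the variation among these 9 libraries, part of which may be technical.

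Libraries held 3810123 to 7072885 counts, of which 191855 to 344777 fell on the ribosomal protein genes. Stem cell markers followed the sort. The CPM of 8 such genes summed to between 2112 and 2221 in CD201+CD48-, 953.8 and 979.8 in CD201+CD48+, and 397.5 and 416.2 in CD201- libraries. Procr, 1 of the 8, encodes the sort marker CD201 and is no separate check of the sort. Its means were 63.2, 26.5 and 3.56 CPM in the same order. Summed markers of mast cells and basophils stood at 35.9 to 44.3 CPM in CD201- libraries, against 5.09 to 9.60 and 3.44 to 4.73 CPM in the others, with Tpsb2 and Cma1 at 0 throughout. Granulocyte and monocyte markers summed to 27.0 to 41.7 CPM in CD201- and to 20.5 to 26.4 CPM in the CD201+ libraries, and lymphoid markers stayed below 1 CPM. Megakaryocyte markers summed to 745.9 to 765.9, 270.9 to 279.7 and 523.1 to 645.5 CPM in CD201+CD48-, CD201+CD48+ and CD201- libraries, and erythroid markers to 200.6 to 229.8, 136.4 to 149.6 and 53.9 to 96.0 CPM. The part of such mixed cell content in the results below was not tested.

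One library, CD201- replicate 3, stands apart from its group. It had counts for 13663 genes, against 14725 and 15347 in the other CD201- libraries, and when libraries were weighted by their fit to the model (limma voom, sample weights) its weight was 0.176 against 0.791 to 1.55 for the rest. In 17 of the 83 ribosomal protein genes its level was at least 1.5-fold below the mean of CD201- replicates 1 and 2, and in 5 it was at least 1.5-fold above (20.5% and 6.02%). The departure was not limited to them: the shares were 10.6% and 6.04% over all tested genes, and 1.55% and 5.84% over genes that averaged at least 100 CPM. No member differed by as much between replicates 1 and 2, against 6.7% of all tested genes. The standard deviation of the log2 deviations of replicate 3 was 0.541 over the members, 0.485 over all tested genes and 0.309 over abundant genes, and that of replicate 1 against replicate 2 was 0.114, 0.315 and 0.096. Counts of calls below are therefore given with and without this library. Among the genes called with all libraries, those called without it were 24 of 25 members in the first comparison with CD201- cells and 16 of 16 in the second.

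The deviations ran in both directions and differed by subunit. Small subunit genes were mostly low in CD201- replicate 3, 25 of 32, with a median log2 deviation of −0.37. Large subunit genes were divided, 24 of 51 low with a median of 0.06. Rpl39, a short protein of the peptide exit tunnel, stood at 161, 144 and 47.6 CPM in CD201- replicates 1, 2 and 3. Rpl10, which joins the large subunit late in its assembly, stood at 316, 294 and 105 CPM in the same order. Both were far lower in the last library than in the others. In the opposite direction, Rpl36a stood at 315, 309.8 and 602 CPM and Rps6, the substrate of S6 kinase, at 817, 860.0 and 1336 CPM. Rps12 (122, 97.5 and 188 CPM) was also highest in that library. The heat map of the members shows these deviations as single dark cells in the last column.

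**Figure D1:**
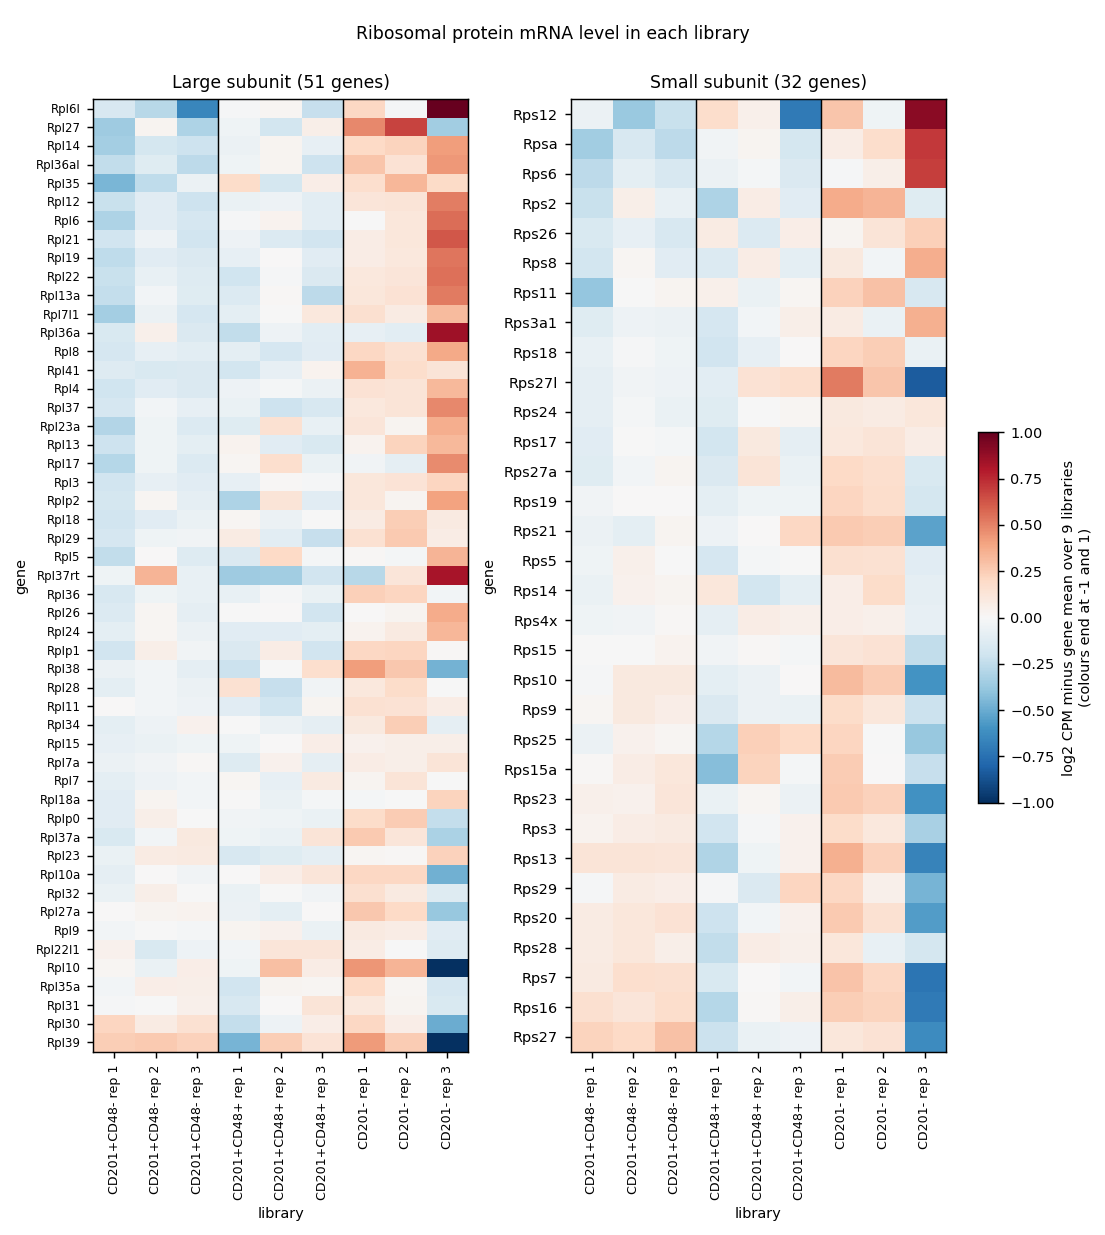
Level of each tested ribosomal protein gene in each of the 9 libraries, as log2 CPM minus the mean of that gene over all libraries, with large subunit genes at left and small subunit genes at right, ordered by the fold change between CD201+CD48- and CD201-. CD201- replicate 3, the last column, holds the deepest blue (Rpl39 and Rpl10) and the deepest red (Rpl6l).

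The share of all counts on ribosomal protein genes was close to 5% in every library, and it depends on no scaling between libraries. It was 4.70%, 5.04% and 4.96% in CD201+CD48- replicates 1, 2 and 3, 4.70%, 4.995% and 4.87% in CD201+CD48+, and 5.18%, 5.17% and 4.86% in CD201-. Group means were 4.90 ± 0.176%, 4.86 ± 0.150% and 5.07 ± 0.182% (SD, n = 3 each). The populations overlap. With CD201- replicate 3 left out, the CD201- values of 5.18% and 5.17% lay above all 6 CD201+ libraries.

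The subunits differed in how the populations lay. Large subunit genes took 2.68% to 2.90% of counts in CD201+CD48-, 2.75% to 2.89% in CD201+CD48+ and 2.96% to 2.99% in CD201- libraries, so every CD201- library was above every CD201+ library. Small subunit genes took 2.03% to 2.13%, 1.95% to 2.11% and 1.90% to 2.21% in the same order, and the ranges overlapped. The ratio of small to large subunit counts was 0.643 in CD201- replicate 3 and between 0.707 and 0.757 in the other 8 libraries.

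**Figure D2:**
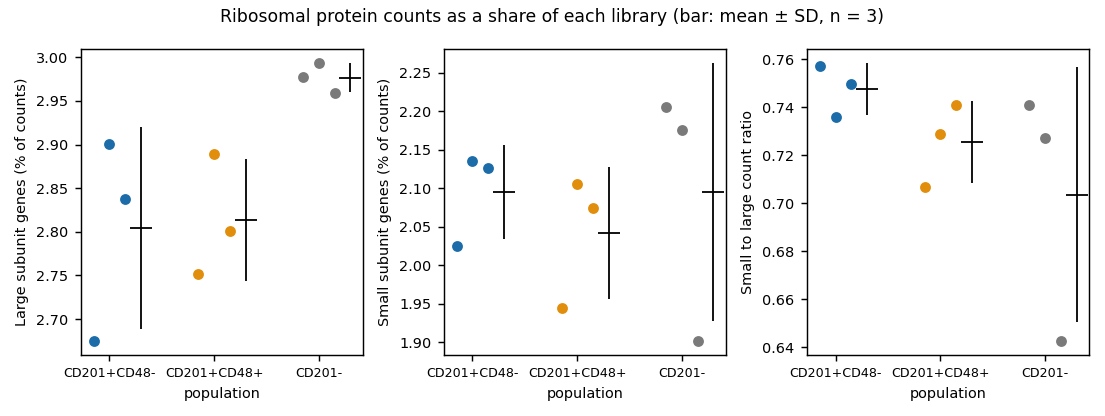
Share of each library's counts on large subunit genes, share on small subunit genes, and the ratio of the 2 (vertical axes), by population; points are libraries in replicate order and bars the mean ± SD of 3. The large subunit share is 2.96% to 2.99% in CD201- libraries and at most 2.90% in the others, and 1 CD201- library has a ratio of 0.643. The vertical axes do not start at 0.

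The first comparison asked how the CD201+CD48- population, the one with the highest stem cell marker levels, differs from CD201- cells. Of the 83 ribosomal protein genes, 25 were lower in CD201+CD48- cells and 0 higher (edgeR quasi-likelihood test, Benjamini-Hochberg adjusted p under 0.05 over all tested genes), which is 30.1% of the members against 23.9% of all tested genes called lower and 24.2% called higher. Unadjusted edgeR p was under 0.05 for 30 lower and 0 higher members. The share of all tested genes at that threshold was not computed, so this count cannot be set against it. Ribosomal protein mRNAs are abundant, and among the 2585 genes that averaged at least 100 CPM the shares were 45% lower and 12.5% higher, so the members' share of lower calls lay above that of all genes and below that of abundant genes.

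Most differences were small. The median log2 fold change of the members was −0.16, against 0.00318 over all tested genes, with a standard deviation of 0.22 against 0.88 and a range from −0.90 (Rpl6l) to 0.32 (Rps27). It was negative in 66 of 83. When CPM of the 3 libraries were compared directly, 34 members (41%) lay wholly below the CD201- range, against 27.2% of all tested genes, and 1 (Rps27) wholly above, against 28% of all. The median change and its sign depend on the scaling: it was −0.09 with upper-quartile factors and 0.00905 when libraries were scaled by their total counts alone, where the median of all genes rose to 0.17. In every scaling tried, the members' median lay below that of all tested genes in this comparison and the next, as the plot of medians shows.

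**Figure D3:**
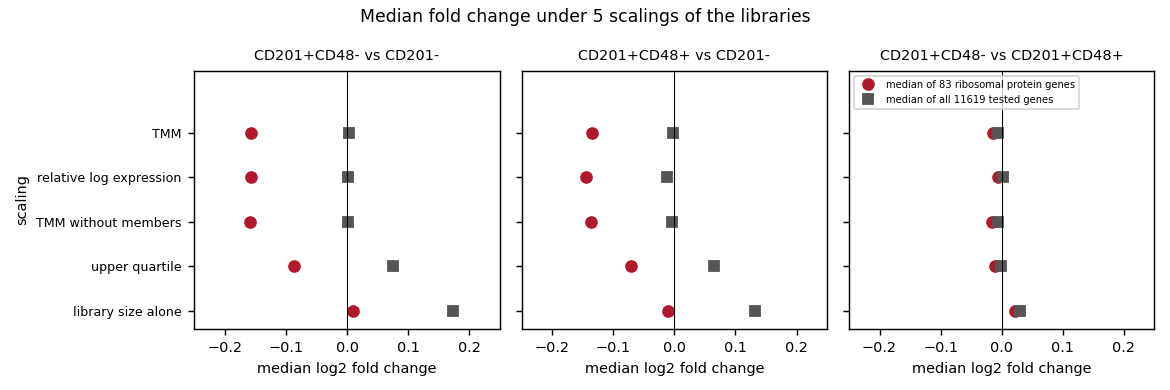
Median log2 fold change (horizontal axis) of the 83 ribosomal protein genes (circles) and of all 11619 tested genes (squares) under 5 ways of scaling the libraries (vertical axis; TMM is the scaling used for the tests), for each comparison. In both comparisons with CD201- cells the circle lies to the left of the square in each of the 5 scalings. Scaling moves circle and square by nearly the same amount, so the 5 rows are no separate checks of this order. With total counts alone the circle passes 0 in CD201+CD48- against CD201- cells (0.00905) and stays left of 0 in CD201+CD48+ against CD201- cells (−0.0111).

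Large subunit genes made up 22 of the 25 lower calls, 22 of 51 tested, and the small subunit gave 3 of 32; this difference between subunits was not tested. Rpl14 (chr9:120571517-120574653), a protein of the solvent side of the large subunit, had 583, 653 and 640.1 CPM in CD201+CD48- replicates 1 to 3 against 846, 860.2 and 986 CPM in CD201-. All 3 CD201+CD48- libraries were below all 3 CD201- libraries, a log2 fold change of −0.52 ± 0.09 (SE; edgeR adjusted p = 0.00015). It carries a run of 14 pyrimidines in the window printed above.

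Rpl36al (chr12:69182734-69184067), a retained copy of Rpl36a, had 81.4, 88.9 and 80.4 CPM against 117, 107 and 131 CPM, again with no overlap (log2 fold change −0.50 ± 0.09, edgeR adjusted p = 0.000367). Rpl35 (chr2:39001581-39005131), which sits at the exit of the peptide tunnel, had 129, 149 and 171 CPM against 199.6, 224 and 203 CPM (log2 fold change −0.48 ± 0.11, edgeR adjusted p = 0.00179). Rpl8 (chr15:76904071-76906318), a core protein near the peptidyl transferase centre, had 1106, 1170.1 and 1150.0 CPM against 1429.8, 1380.1 and 1609 CPM (log2 fold change −0.37 ± 0.09, edgeR adjusted p = 0.00229). These 3 genes share the pattern of Rpl14, with the 2 groups apart in every library.

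Rpl4 (chr9:64173387-64178562), one of the 3 members with the highest mean CPM, fell from 2319 ± 176 CPM in CD201- to 1813 ± 53.6 CPM in CD201+CD48- cells (SD, n = 3; log2 fold change −0.35 ± 0.09, edgeR adjusted p = 0.00347). CPM values are not divided by transcript length, so this order is one of counts and not of transcripts. Rpl6l, a Rpl6-like gene with 433 counts in all libraries together, had the lowest fold change, 7.94, 7.33 and 5.54 CPM against 10.4, 8.82 and 19.9 CPM (log2 fold change −0.90 ± 0.28, edgeR adjusted p = 0.0157). Its call was lost without CD201- replicate 3 (−0.46, adjusted p = 0.0921), the library with 19.9 CPM. Rpl27 had 34.4, 45.2 and 35.6 CPM against 61.8, 71.0 and 34.6 CPM. Here the last CD201- library lay within the CD201+CD48- range, and the log2 fold change of −0.55 ± 0.21 (edgeR adjusted p = 0.0494) became −0.80 without it (adjusted p = 5.16e-09). The other large subunit genes called lower were Rpl12, Rpl6, Rpl21, Rpl19, Rpl22, Rpl13a, Rpl7l1, Rpl41, Rpl37, Rpl23a, Rpl13, Rpl3, Rpl18, Rpl29 and Rpl36 (without CD201- replicate 3 from −0.40 to −0.21), with log2 fold changes from −0.45 to −0.24.

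The small subunit genes called lower were Rpsa, Rps6 and Rps26. Rpsa (chr9:120127766-120132369), also known as the laminin receptor, was the member with the most counts, 164888 in all. It had 2767, 3159 and 2935 CPM in CD201+CD48-, 3448, 3586 and 3121 CPM in CD201+CD48+ and 3723, 3974 and 5767 CPM in CD201- libraries. Both CD201+ populations lay below every CD201- library, and the log2 fold change of CD201+CD48- against CD201- was −0.60 ± 0.14 (edgeR adjusted p = 0.00243). Without CD201- replicate 3 the value was −0.38 (adjusted p = 3.85e-07).

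Rps6 had 689, 769.6 and 740.2 CPM against 817, 860.0 and 1336 CPM in CD201- cells (log2 fold change −0.45 ± 0.15, edgeR adjusted p = 0.0214). The ranges did not overlap, and without CD201- replicate 3 the fold change was −0.20 (adjusted p = 0.00248). Rps26, a protein of the mRNA exit channel, had 576, 604 and 575 CPM against 652, 699 and 755 CPM (log2 fold change −0.26 ± 0.09, edgeR adjusted p = 0.02). Rps12 had a larger fold change that did not pass (−0.64 ± 0.30, adjusted p = 0.111), its CD201- values being spread from 97.5 to 188 CPM.

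At the other end of the order stood Rps27 (chr3:90212667-90213648), a zinc-binding protein of the small subunit. It had 141, 138 and 148 CPM in CD201+CD48-, 104, 115 and 117 CPM in CD201+CD48+ and 131, 133 and 77.8 CPM in CD201- libraries. Its log2 fold change against CD201- cells was 0.32 ± 0.15 and did not pass (edgeR adjusted p = 0.104). The next highest, Rpl39, Rpl30, Rps16, Rps7 and Rps28, had fold changes from 0.13 to 0.28, none called, and in all but Rps28 CD201- replicate 3 was at least 1.5-fold below the mean of the other CD201- libraries.

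**Figure D4:**
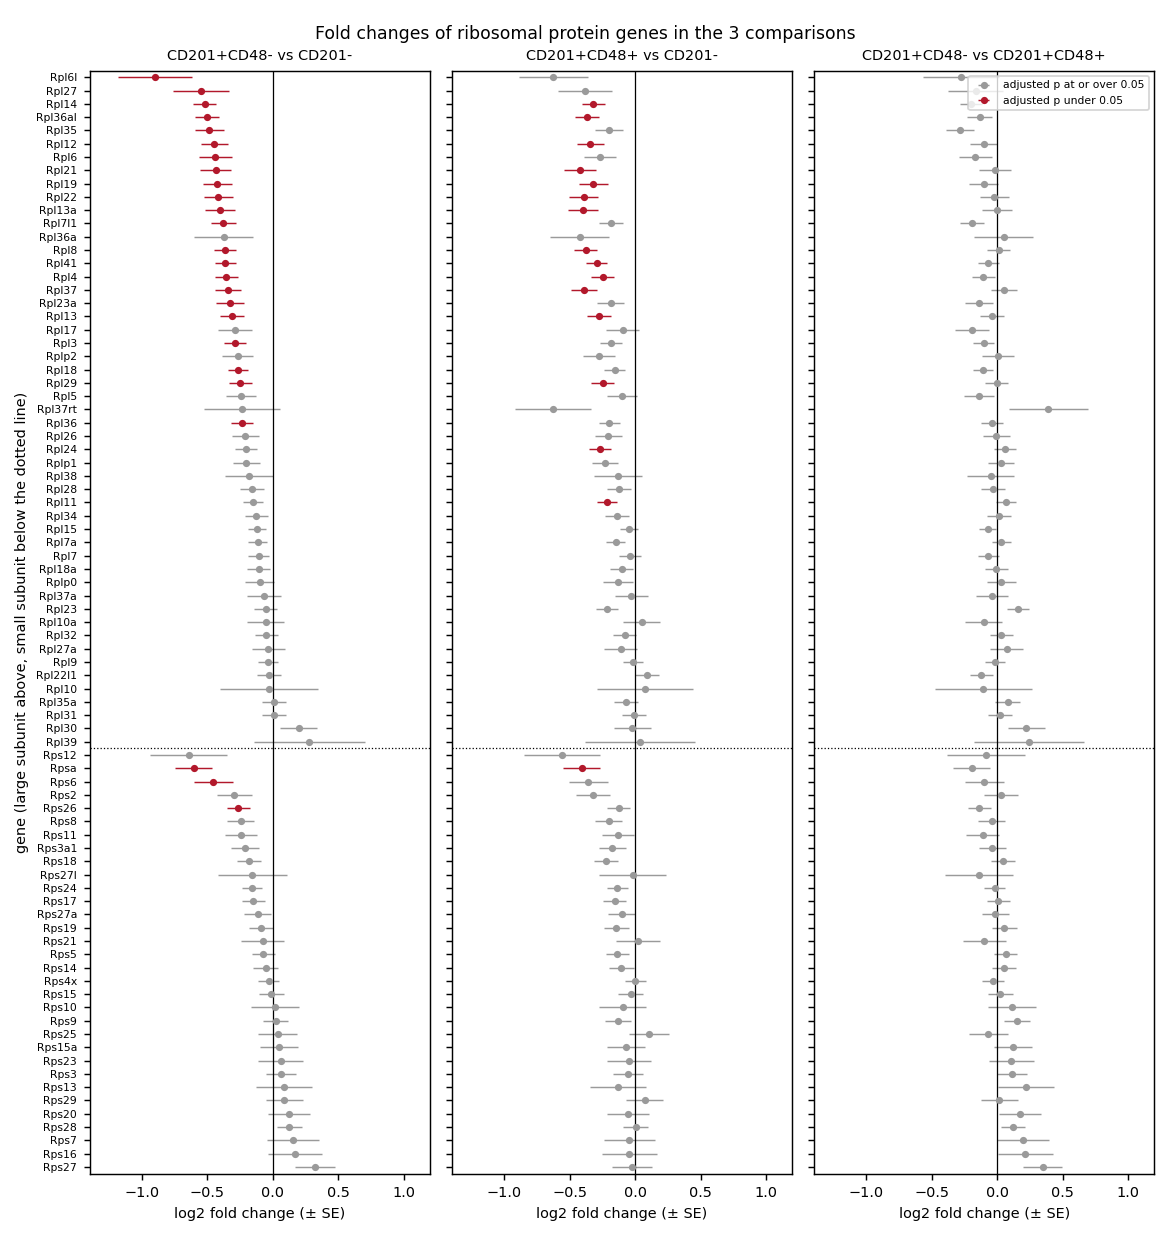
Log2 fold change ± SE (horizontal axis) of each tested ribosomal protein gene (vertical axis) in the 3 comparisons, with genes past an edgeR adjusted p of 0.05 in red. Red points, 25 and 16, all lie left of 0 in the comparisons with CD201- cells and are mostly large subunit genes above the dotted line; no point is red between the CD201+ populations.

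Leaving out CD201- replicate 3 raised the number of calls and brought the subunits closer together. In CD201+CD48- against CD201- cells 50 of 83 members were then lower and 0 higher, against 26.2% of all tested genes lower and 25.7% higher. Shares among genes with at least 100 CPM were not computed for this fit. The 50 lower members were 33 of 51 of the large and 17 of 32 of the small subunit. Of the 25 calls with all libraries, 24 were among them. The members' median moved from −0.16 to −0.20 and their standard deviation from 0.22 to 0.15. For Rps27l, an Rps27 copy known as a p53 target, the log2 fold change went from −0.16 (adjusted p = 0.66) to −0.47 (adjusted p = 6.69e-05), and for Rpl10 from −0.03 to −0.38 (adjusted p = 2.24e-05; edgeR). With library size alone as the scaling and this library left out, 20 of 83 members were lower and 3 higher. The shares of all tested genes were then 18.1% and 34.8%. The cause of this library's difference was not tested.

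**Figure D5:**
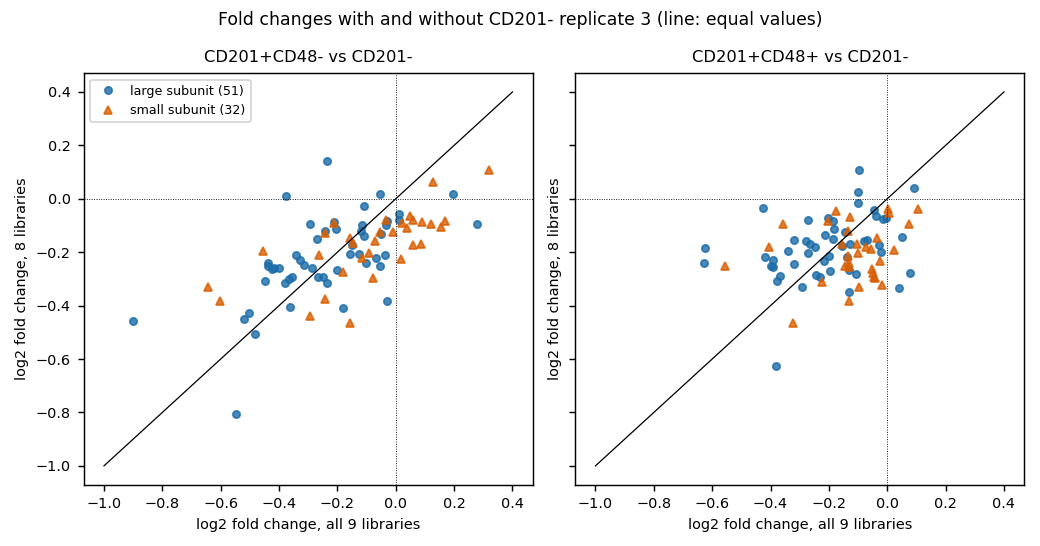
Log2 fold change of each member with all 9 libraries (horizontal axis) against that with CD201- replicate 3 left out (vertical axis), for CD201+CD48- and CD201+CD48+ against CD201- cells; circles are large and triangles small subunit genes. Most triangles right of 0 on the horizontal axis fall below 0 on the vertical axis, and the spread of the points is narrower vertically than horizontally.

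The second comparison placed CD201+CD48+ cells against the same CD201- libraries, so it shares those samples with the first and is no separate check of it. Again the calls were all in 1 direction. Of 83, 16 were lower and 0 higher (19.3%), against 14.3% of all tested genes lower and 14.8% higher, and against 29.2% lower and 8.55% higher among genes with at least 100 CPM. Unadjusted edgeR p was under 0.05 for 27 lower and 0 higher, again with no share of all tested genes computed. The lower genes were 15 of the large subunit and Rpsa. The median log2 fold change was −0.14 (all genes −0.0022), with a range from −0.63 (Rpl37rt) to 0.11 (Rps25), and 74 of 83 were negative. With total counts as the only scaling it was −0.0111, beside 0.13 for all genes, and 6 members were called lower (7.32% of all tested genes). Ranges were wholly below CD201- for 21 members (25.3%), against 20.3% of all tested genes, and above it for 0, against 21.4%.

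Rpl8 had 1156, 1101 and 1144 CPM in CD201+CD48+ libraries, below all CD201- values, with a log2 fold change of −0.38 ± 0.09 (edgeR adjusted p = 0.00398). Rpl21 had 228, 214 and 207 CPM against 249, 255 and 364 CPM (−0.42 ± 0.12, edgeR adjusted p = 0.0174; −0.22 without CD201- replicate 3, adjusted p = 0.00347). Rpl36al had 93.6, 98.5 and 83.5 CPM (−0.37 ± 0.09, edgeR adjusted p = 0.00695). For Rpl8 the difference between the CD201+ populations was 0.01 ± 0.09, with a 95% interval from −0.17 to 0.19, and the mean of Rpl36al lay between those of the other populations. Rpsa differed by −0.41 ± 0.14 (edgeR adjusted p = 0.0411), and by −0.18 without CD201- replicate 3 (adjusted p = 0.0156).

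Side by side, Rpl14 had log2 fold changes of −0.52 and −0.32 in the first and second comparison, and Rpl22, an RNA-binding protein of the large subunit that is dispensable for translation, had −0.42 and −0.39 (−0.26 and −0.23 without CD201- replicate 3, still called). Rpl35 had −0.48 and −0.20, and passed in the first alone (adjusted p = 0.172 in the second). Members called lower in both numbered 14, which is 14 of 25 and 14 of 16, and the comparisons share the CD201- libraries. Without CD201- replicate 3, 49 members were lower in the second comparison and 0 higher, against 18.1% lower and 18.2% higher of all tested genes. They were 29 of the large and 20 of the small subunit, and included all 16 of the calls with 9 libraries. For this fit too, shares among genes with at least 100 CPM were not computed. The counts with all libraries also moved when others were left out: 13 (of all tested genes 19.8%) were lower in the first comparison without CD201+CD48- replicate 1, and 5, 7 and 8 (9.2%, 10.5% and 10.3% of all) in the second without CD201+CD48+ replicates 3, 1 and 2, where fewer samples enter the fit. As shares of the 83 members these counts lie below those of all tested genes. The second gave 10 without any 1 of the CD201+CD48- libraries (12.7% to 13.1% of all).

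What that library does to single small subunit genes is shown by 3 of them. Rps7, needed for processing of the small subunit RNA, had 937, 989 and 979.7 CPM in CD201+CD48-, 793, 879.9 and 861 CPM in CD201+CD48+ and 1068, 1013 and 529.9 CPM in CD201- libraries. With all libraries its log2 fold change was 0.15 ± 0.20 in CD201+CD48- and −0.04 ± 0.20 in CD201+CD48+ cells, neither called. Without that library it was −0.10 (edgeR adjusted p = 0.11) and −0.30 (adjusted p = 1.44e-05), so the second passed. Rps10, a protein of the small subunit head, had 219, 236 and 236 CPM in CD201+CD48-, 205, 212 and 221 CPM in CD201+CD48+ and 274, 263 and 145 CPM in CD201- libraries, with changes of −0.22 and −0.33 without that library (adjusted p = 0.00145 and 9.17e-06). Rps2, near the mRNA entry channel, had 472, 575 and 524 CPM in CD201+CD48-, 447, 580.2 and 510.2 CPM in CD201+CD48+ and 716, 699 and 509 CPM in CD201- libraries, and went from −0.29 and −0.32, not called, to −0.44 and −0.46 (adjusted p = 0.0141 and 0.0157). In all 3 genes the 2 remaining CD201- libraries lay above every CD201+ library.

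The third comparison, between the CD201+ populations, bears on whether CD48 goes with a difference in these mRNAs. No member was called, 0 higher and 0 lower. The shares were 9.05% and 6.31% of all tested genes and 5.22% and 12.2% of those with at least 100 CPM. Unadjusted edgeR p was under 0.05 for 1 higher and 2 lower members, with no share of all tested genes computed. DESeq2 called 0 in each direction as well, in a fit to the same 9 libraries. That fit includes CD201- replicate 3, so it is no separate check of what this library does. CPM ranges lay wholly above for 11 members (13.3%; 21% of all tested genes) and wholly below for 6 (7.23%; 19.7%). The median log2 fold change was −0.0147 and the range −0.28 (Rpl35) to 0.39 (Rpl37rt). The 95% interval of the fold change lay within 1.5-fold of no change for 72 of 83 members. For those, larger differences were outside the interval. Smaller ones were not excluded, and the median half-width of the intervals was 0.221 in log2. Rplp2, for example, had 1516, 1742 and 1610.1 CPM in CD201+CD48- and 1381, 1871 and 1589 CPM in CD201+CD48+ libraries (0.01 ± 0.12).

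This comparison uses no CD201- library, but its test shares the spread estimated over all 9. Without CD201- replicate 3 the fold changes of members moved by at most 0.0117, and the standard error was smaller for 80 of 83 and larger for Rpl35, Rps15a and Rps25. The test then called 8 members higher and 6 lower in CD201+CD48-, against 15.4% and 14.5% of all tested genes. Fitting the 2 CD201+ populations by themselves gave 8 higher and 5 lower (15.4% and 13.5% of all tested genes). Rps27 was higher, with a log2 fold change of 0.34 in the fit without that library (edgeR adjusted p = 1.91e-05) and 0.35 with all (adjusted p = 0.154). Its 3 CD201+CD48- values, 138 to 148 CPM, lay above the 104 to 117 CPM of CD201+CD48+ libraries. Rpl30, Rps13 and Rps16 were also higher without it (0.22, 0.21 and 0.21), and Rpl14, Rpl17, Rpl7l1 and Rpsa lower (−0.21, −0.20, −0.20 and −0.20).

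Groups within the ribosome were looked at next, beginning with the stalk. Rplp0, Rplp1 and Rplp2 form the flexible arm of the large subunit that recruits elongation factors, and none of the 3 was called in any comparison. Rplp0 had 1350.1, 1519.5 and 1456 CPM in CD201+CD48-, 1423, 1414 and 1395 CPM in CD201+CD48+ and 1661, 1741 and 1235 CPM in CD201- libraries. The last of these was the lowest of all 9 for Rplp0, whereas for Rplp2 (1859.6, 1745 and 2262 CPM) it was the highest. Without it, Rplp0 and Rplp1 were lower in CD201+CD48- (−0.24 and −0.27, edgeR adjusted p = 0.00026 and 0.00242) and in CD201+CD48+ cells (−0.27 and −0.29, adjusted p = 0.000108 and 0.00185), and Rplp2 in neither.

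Rpl5 and Rpl11 join the 5S ribosomal RNA before it enters the large subunit, and when free they bind the p53 regulator MDM2. Rpl11 was lower in CD201+CD48+ compared with CD201- cells, 255, 240.2 and 281 against 307, 305 and 291 CPM (−0.22 ± 0.08, edgeR adjusted p = 0.0437). In CD201+CD48- compared with CD201- cells it did not pass (−0.15 ± 0.08, adjusted p = 0.122), and did without CD201- replicate 3 (−0.17, adjusted p = 0.0148). Rpl5 had 957, 1137 and 1039 CPM in CD201+CD48-, 1029, 1305 and 1119.8 CPM in CD201+CD48+ and 1143, 1122 and 1441 CPM in CD201- libraries and passed in none (lowest adjusted p = 0.0971). Of the p53 genes listed with them, Trp53, Mdm2 and Mdm4 were not called with all libraries, and Trp53 was lower in CD201+CD48- compared with CD201- cells without CD201- replicate 3 (−0.26, adjusted p = 0.0016). Cdkn1a, the p53 target that encodes p21, was lower in CD201+CD48+ compared with CD201- cells (−1.05 ± 0.15, edgeR adjusted p = 9.27e-05) and higher in CD201+CD48- compared with CD201+CD48+ cells (0.78 ± 0.15, adjusted p = 0.00236).

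Several ribosomal proteins have a second gene, or a related gene with a similar symbol. Pairs were formed by symbol, and whether the product of each gene is part of the ribosome was not tested. Of the genes listed as such, Rpl7l1, Rpl22l1, Rpl36al and Rps27l had enough counts, while Rpl3l, Rpl10l, Rpl39l, Rps4l, Rps27rt, Rps3a2 and Rps3a3 were at or near 0. Rpl7l1 was lower in CD201+CD48- compared with CD201- cells (75.7, 92.0 and 85.5 against 107, 102 and 119 CPM; −0.38 ± 0.09, edgeR adjusted p = 0.00364), and Rpl7 was not (−0.11 ± 0.08, adjusted p = 0.292), although it passed without CD201- replicate 3 (−0.14, adjusted p = 0.0346). Rpl36al was lower and Rpl36a, at 299.6, 345 and 302 against 315, 309.8 and 602 CPM, was not called (−0.37 ± 0.22, adjusted p = 0.2). Rpl22 was lower and Rpl22l1, which Rpl22 is known to repress, was not called (−0.03 ± 0.09, adjusted p = 0.802). These differences between the genes of a pair were tested as ratios within each library.

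The log2 ratio of Rps27l to Rps27 was −1.48 ± 0.05 in CD201+CD48-, −1.01 ± 0.05 in CD201+CD48+ and −1.08 ± 0.29 in CD201- libraries (SD, n = 3 each). The CD201+ populations differed by −0.47, with all 3 libraries of one below all 3 of the other (exact permutation test, two-sided, p = 0.1, the smallest that 3 against 3 can give). For Rpl22l1 to Rpl22 the ratio was −3.50 ± 0.17, −3.40 ± 0.07 and −3.87 ± 0.35 in the same order. For Rpl36al to Rpl36a it was −1.89 ± 0.04, −1.71 ± 0.15 and −1.70 ± 0.42, and for Rpl7l1 to Rpl7 −3.45 ± 0.12, −3.33 ± 0.10 and −3.19 ± 0.18. The ratio of Rpl37rt to Rpl37 was −5.61 ± 0.13, −5.84 ± 0.11 and −5.82 ± 0.25, and that of Rpl6l to Rpl6 −7.02 ± 0.27, −6.95 ± 0.05 and −6.75 ± 0.28. Of the 18 comparisons of these 6 ratios, 4 reached that smallest p of 0.1: Rps27l to Rps27 in CD201+CD48- against both other populations, Rpl22l1 to Rpl22 in CD201+CD48+ against CD201- cells, and Rpl37rt to Rpl37 between the CD201+ populations. None can pass the threshold in a design of this size.

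Genes reported in Diamond-Blackfan anaemia, an inherited failure of red cell production, were a list of 22, all tested. In CD201+CD48- against CD201- cells 5 of 22 were lower and 0 higher, Rpl35, Rpl8, Rpl18, Rps26 and Rpl27, beside 23.9% of all tested genes lower. In CD201+CD48+ against CD201- cells 2 were lower, Rpl8 and Rpl11, beside 14.3% of all, and between the CD201+ populations 0 were called. These shares are below those of all tested genes. Without CD201- replicate 3, 10 were lower in each of the first 2 comparisons (26.2% and 18.1% of all), and 1 was lower and 3 higher in the third (14.5% and 15.4% of all). Rps19, the gene most often affected in that disease, had 525, 541 and 539.6 CPM in CD201+CD48-, 503, 523 and 521 CPM in CD201+CD48+ and 625, 607 and 477 CPM in CD201- libraries. It was not called with all libraries (−0.09 ± 0.09, edgeR adjusted p = 0.458) and was lower without the last one (−0.20, adjusted p = 0.00102).

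Fau and Rack1 belong to the small subunit but have symbols of another scheme: Fau encodes a ribosomal protein fused to a ubiquitin-like protein, and Rack1 is a scaffold on the small subunit. Neither was called in any comparison. Rack1 had 1266, 1326 and 1329.8 CPM in CD201+CD48-, 1310.4, 1278 and 1325 CPM in CD201+CD48+ and 1607, 1628 and 1165 CPM in CD201- libraries. The last of these values was the lowest of all 9. Without that library Rack1 was lower compared with CD201- cells in CD201+CD48- (−0.31, edgeR adjusted p = 2.51e-06) and in CD201+CD48+ cells (−0.31, adjusted p = 5.79e-06).

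Other mRNAs with a TOP motif encode translation factors and related proteins, and 16 of them were listed. In CD201+CD48- against CD201- cells 10 were lower and 0 higher, beside 23.9% and 24.2% of all tested genes. Among genes that averaged at least 100 CPM, as all 16 did, the shares were 45% and 12.5%. The median log2 fold change of the 16 was −0.37. The median was −0.24 without CD201- replicate 3, beside −0.20 for the ribosomal protein genes, and 11 were lower and 1 higher (26.2% and 25.7% of all). Npm1, a nucleolar chaperone of ribosome assembly, had 1330.5, 1443 and 1438 CPM against 2342, 2384 and 3559.9 CPM (−0.98 ± 0.13, edgeR adjusted p = 2.88e-05). Eef1d (−0.57 ± 0.09), Nap1l1 (−0.58 ± 0.11) and Eef1g (−0.42 ± 0.10) were lower as well, while Eef1a1 and Eef2, the main elongation factors, were not called (−0.08 and −0.12). Without that library Eef2 was lower (−0.14, adjusted p = 0.0342) and Tpt1, which encodes the translationally controlled tumour protein, was higher (0.16, adjusted p = 0.0182; edgeR). In CD201+CD48+ against CD201- cells 7 of 16 were lower, against 14.3% of all tested genes and 29.2% of those with at least 100 CPM. Between the CD201+ populations 0 were called. Without CD201- replicate 3 the numbers in these comparisons were 8 and 5 lower (18.1% and 14.5% of all).

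Dedicated chaperones escort single ribosomal proteins to the nucleolus. Of 8 listed, 6 were lower in CD201+CD48- compared with CD201- cells, 3 in CD201+CD48+ compared with CD201- cells and 1 (Grwd1) in CD201+CD48- compared with CD201+CD48+ cells, none higher, beside 23.9%, 14.3% and 6.31% of all tested genes lower. With CD201- replicate 3 left out, 5 were lower in each of the 3 comparisons (26.2%, 18.1% and 14.5% of all). Aamp, a chaperone listed with them, was then higher in both comparisons with CD201- cells (0.31 and 0.21, edgeR adjusted p = 0.000315 and 0.0166). Ltv1, which helps place proteins of the small subunit head, had 56.1, 60.9 and 53.1 CPM in CD201+CD48-, 64.8, 71.1 and 72.3 CPM in CD201+CD48+ and 86.3, 97.5 and 124 CPM in CD201- libraries (−0.86 ± 0.12 against CD201-, edgeR adjusted p = 2.69e-05). Grwd1, a chaperone of Rpl3, had 26.8, 29.6 and 31.9 CPM in CD201+CD48-, 46.1, 34.4 and 39.6 CPM in CD201+CD48+ and 50.5, 48.8 and 61.4 CPM in CD201- libraries (−0.87 ± 0.13, adjusted p = 6.11e-05). For both genes the 3 populations were in the order CD201+CD48-, CD201+CD48+, CD201- with no overlap. Heatr3, which carries Rpl5 and Rpl11, and Bccip, which binds Rpl23, were lower too (−0.55 ± 0.10 and −0.45 ± 0.12).

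Genes of RNA polymerase I, which makes the ribosomal RNA, and of the transcription factors that work with it numbered 12 together. Of these 6 were lower in CD201+CD48- compared with CD201- cells, 4 in CD201+CD48+ compared with CD201- cells and 3 in CD201+CD48- compared with CD201+CD48+ cells, none higher, beside 23.9%, 14.3% and 6.31% of all tested genes lower. The numbers were 7, 4 and 5 without CD201- replicate 3 (26.2%, 18.1% and 14.5% of all). Polr1a, the largest subunit of the polymerase, changed by −0.60 ± 0.08, −0.35 ± 0.07 and −0.25 ± 0.08 in the 3 comparisons (edgeR adjusted p = 1.17e-05, 0.00284 and 0.0344). Polr1b and the transcription factor Ubtf were lower against CD201- cells by −0.62 ± 0.09 and −0.52 ± 0.08 in CD201+CD48- cells.

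Of 13 genes that control TOP mRNA translation, 5 were lower and 1 higher in CD201+CD48- compared with CD201- cells, and 4 lower and 1 higher in CD201+CD48+ cells, beside 23.9% lower and 24.2% higher, then 14.3% and 14.8%, of all tested genes. Between the CD201+ populations 0 were called. Without CD201- replicate 3 the numbers were 7 lower and 2 higher in the first comparison (26.2% and 25.7% of all tested genes). They were 5 and 1 in the second (18.1% and 18.2%), and 2 and 1 in the third (14.5% and 15.4%). Larp1, the reader of the TOP motif, had 307, 295 and 297 CPM in CD201+CD48-, 327, 326 and 315 CPM in CD201+CD48+ and 432, 472 and 492 CPM in CD201- libraries (−0.63 ± 0.07 and −0.53 ± 0.07 against CD201-, edgeR adjusted p = 6.24e-06 and 9.25e-05). The cap-binding protein Eif4e, its repressor Eif4ebp1 and the mTOR inhibitor Ddit4 were lower in both (−0.56 and −0.35, −0.72 and −0.46, −0.95 and −1.18). Tsc2, which restrains mTOR, was higher in CD201+CD48- cells (0.36 ± 0.09, adjusted p = 0.00432), and its partner Tsc1 in CD201+CD48+ cells (0.22 ± 0.07, adjusted p = 0.033). Without that library Tsc1 passed in CD201+CD48- cells as well (0.20, adjusted p = 0.0239). Mtor and Rptor were not called. As these are bulk samples, fewer cells of a kind and less of an mRNA in each cell cannot be told apart.

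Calls were set against features of the genes that played no part in choosing them. Of 62 tested members with a start site in the reference table, 35 held the pyrimidine run and 27 did not. In CD201+CD48- against CD201- cells 11 of 35 (31.4%) and 7 of 27 (25.9%) were lower, with medians of −0.16 and −0.15. In CD201+CD48+ against CD201- cells the counts were 6 of 35 and 7 of 27. Without CD201- replicate 3 they were 24 of 35 and 13 of 27 in the first comparison and 20 of 35 and 16 of 27 in the second. No order between members with and without the run was common to these 4 counts.

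Introns of ribosomal protein genes often hold small nucleolar RNAs, which guide the modification of ribosomal RNA. At least 1 lies inside 30 of the 83 tested genes in the RefSeq annotation. Of those 30 hosts, 10 were lower in CD201+CD48- compared with CD201- cells, against 15 of the other 53, and in CD201+CD48+ cells 7 of 30 against 9 of 53. Without CD201- replicate 3 the counts were 16 of 30 and 34 of 53, then 18 of 30 and 31 of 53. In the first comparison the order of hosts and other members thus changed with the libraries used.

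Ribosomal protein genes have more processed pseudogenes than almost any other family, and reads of 36 nt can match several copies. The sources used here do not say how the counting treated such reads or whether it used strand, so levels of single members are uncertain to that extent. The table lists 276 pseudogene symbols of these genes, 16 of them with any count and 3982 counts in all, at most 0.0101% of a library. Another annotated gene overlaps 17 of the 83 tested members on either strand, Rpl18, Rpl22 and Rpsa among them. Rpl6l, Rpl36al with Rpl36a, Rpl37rt with Rpl37, and Rps27l with Rps27 are pairs whose reads may be divided between near-identical sequences.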

How the data were processed

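RNA of 9 sorted samples of over 5000 cells each was extracted with Trizol LS, copied with a SMARTer kit and sequenced in pairs of 36 nt on a NextSeq sequencer, per the labels' protocols. The deposited table holds raw counts per gene symbol, not normalized by the authors; the submitters' processing notes name mm10 and DESeq2, and an aligner, a counting tool and the handling of strand are not stated there or in the labels. The authors' table of normalized signal equals the raw counts divided by 1 factor per sample and served 1 alternative (limma). A further 3 columns of per-sample values fitted no sample label and were left out.

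Genes were kept by filterByExpr (minimum count 10), scaled by TMM factors and tested with edgeR 4.0.16 (quasi-likelihood F test; R 4.3.3), all 9 libraries in 1 fit, with Benjamini-Hochberg adjustment over the 11619 genes of each comparison and a threshold of 0.05 (common coefficient of biological variation 8.64%). Levels are CPM with TMM-scaled totals; log2 levels use a prior count of 2. Standard errors are the log2 fold change over the square root of F. Alternatives used other scalings, filters, limma 3.58.1, DESeq2 1.42.0, a replicate block and leaving out each library. Same-numbered replicates did not deviate together (correlations from −0.113 to 0.0447), so the numbers were not taken as pairs.

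The members and the gene lists were chosen with earlier results of these data known. Named were, per comparison, the 6 tested members with the highest and the 6 with the lowest fold change, the 3 with the highest CPM, the stalk, Rpl5, Rpl11, copies and their parent genes, Fau, Rack1, and up to 4 genes with the smallest p of each other list; further list genes, Rps2, Rps6, Rps10, Rps19, Rps25 and members shown by sequence or in a list of calls were named after their values were seen; 1 other gene of the rule is not reported here. Coordinates and start sites are from RefSeq on GRCm38.p6, the assembly of mm10. Depth was 3810123 to 7072885 counts per library. Figures were drawn with matplotlib 3.10.9.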

Additional observations from a re-analysis of the deposited data

Results flagged for a closer look

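Rpl36-ps3, a symbol named as a pseudogene of Rpl36 and outside the 91 genes, held 2976 counts over the 9 libraries, 17.9% as many as Rpl36 and most of the counts on pseudogene symbols. It was brought up because it is a signal in a part of the table that the comparisons above do not use. Its mean was 64.0 ± 6.55 CPM in CD201+CD48-, 73.3 ± 4.80 in CD201+CD48+ and 53.0 ± 35.9 in CD201- libraries (SD, n = 3 each), and no comparison called it (lowest edgeR adjusted p = 0.56). The CD201- values were 73.9, 73.6 and 11.6 CPM in replicates 1, 2 and 3, so the last library was again far from the other 2. Whether these reads come from Rpl36 or from the pseudogene was not tested.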

How the results depend on the processing

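Results with CD201- replicate 3 in the fit rest on a library that differs from its group, and scaling sets the sign of the median. Members called lower in CD201+CD48- against CD201- cells numbered 12 with library size alone (14.5% of all tested genes) and 42 with voom sample weights (27.1%). With 1 library left out they numbered 13 to 50 (19.8% to 26.2%). Higher calls numbered 1 with library size alone (34.2%), 0 to 1 with 1 library left out (20.8% to 25.7%) and 1 with no filter on low counts (13.6%). The median there was 0.00905 with library size alone, and −0.204 to −0.135 with 1 library left out. In CD201+CD48+ against CD201- cells, lower calls numbered 6 with library size alone (7.32% of all tested genes) and 9 with upper-quartile factors (10.2%). With only the 2 groups compared they numbered 6 (10.4%), with the replicate block 10 (12.7%) and with voom weights 35 (19.2%). With 1 library left out they numbered 5 to 49 (9.2% to 18.1%). The median was −0.0111 with library size alone and −0.189 to −0.134 with 1 left out. Between the CD201+ populations 1 was higher and 1 lower with no filter (4.95% and 4.45% of all tested genes). The numbers were 8 and 5 with only the 2 groups compared (15.4% and 13.5%) and 3 and 2 with voom weights (16% and 13.5%). With 1 library left out they were 0 to 8 and 0 to 6 (5.71% to 15.4% and 3.07% to 14.5%), and the median was −0.0402 to 0.0247. Library size alone without CD201- replicate 3 gave 20 lower and 3 higher in the first comparison (18.1% and 34.8% of all tested genes). It gave 28 lower and 1 higher in the second (11.7% and 24.9%), and 11 higher and 4 lower in the third (18.6% and 11.4%). This setting and the voom weights were chosen after seeing the data. Of all genes, 24.2% were called higher and 23.9% lower in the first comparison, against 34.2% and 14.5% with library size alone.

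For 150 named gene and comparison pairs, 22 alternatives gave 3298 values. Of these, 3060 stayed on the same side of the threshold, and 90 of those changed sign while passing in neither fit. A further 104 lost the call, 131 gained one and 3 reversed, which is a change of sign with a call in at least 1 fit. The reversals were in CD201+CD48+ against CD201- cells. Rpl10 went from 0.08 to −0.28 without CD201- replicate 3 (0.332 at the other end of the values with 1 library left out) and to −0.19 with library size alone as well. Rpl10a went from 0.05 to −0.14 without that library (up to 0.16 with another left out); the cause was not tested. The replicate block left 25 and 0 calls in the other comparisons. None of 126 paralog ratio values moved beyond the spread between replicates. Most of these values came from leaving out 1 of 3 libraries, which cannot move a ratio that far. Only those with a smaller constant added to the CPM could have moved. All tested members but Rpl37rt and Rpl6l averaged at least 45.6 CPM, and at those lower levels counting error is larger.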
